A study of Homo sapiens with 2 samples.

Results

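MAP1A and MAP1B are paired microtubule-associated proteins, and their genes were examined here for clusters of RNA bound by ADAR1. The clusters were chosen by position and strand in the deposited list (hg19): a midpoint on the plus strand within chr15:43803000-43824000 for MAP1A or chr5:71403000-71505400 for MAP1B. The rule gave 13 of the 23782 clusters listed, 12 in MAP1A and 1 in MAP1B. The pair was picked, with results of this list known, for crowding in the large coding exon of each gene. The list shows a crowded chain for MAP1A, which as a whole is longer than the large exon. Most of its clusters would lie inside that exon under the conditions stated below. The list shows no such chain for MAP1B, whose single cluster lay at the start of its interval.

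ADAR1 was crosslinked to RNA with 254 nm ultraviolet light in U87MG, an established human glioblastoma (astrocytoma) line that was given no other treatment in the labels, and precipitated with a mouse monoclonal antibody. The series has 2 such libraries, AB1 and AB2, 1 each, named for the antibody. The submitters' design text speaks of 2 different antibodies, although both libraries carry the same catalogue entry. The list is 1 for the series: it does not separate AB1 from AB2, has no tag count, score or control library, and so gives neither replicates nor depth. No expression values were used here, so neither the cell line's markers nor the levels of the MAP1A and MAP1B transcripts could be checked.

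ADAR1 edits RNA that is folded into a double strand, turning adenosine into inosine, and in human cells inverted Alu repeats are its best known substrate. MAP1A and MAP1B are each made as a long precursor that is cut into a heavy chain and a light chain, and both bind and stabilize microtubules. In the nervous system MAP1B is prominent in growing axons during development, and MAP1A in mature neurons and their dendrites. Each gene has an unusual layout in which 1 very long exon holds most of the coding sequence.

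In GENCODE release 29, which is on GRCh38 and not on the build of the list, the large exon of MAP1A (ENSG00000166963.12) is exon 5 of 7 in transcript MAP1A-202. It runs from 43521324 to 43529508 on chromosome 15, is 8185 bases long and entirely coding, and makes up 89.7% of the 9123 coding bases. The large exon of MAP1B (ENSG00000131711.14), also exon 5 of 7 in transcript MAP1B-201, runs from 72193866 to 72200367 on chromosome 5. It is 6502 bases long, entirely coding, and makes up 87.8% of 7404 coding bases. Positions on GRCh38 are given to identify the exons, and otherwise lengths, distances within the gene and sequence were taken from this annotation. No position was carried from GRCh38 to hg19, so no cluster is assigned to an exon, intron or untranslated region by its position. Where distances are compared below, a placing holds only under the conditions stated there.

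Double-stranded RNA is the feature that ADAR1 recognises. The sequences below are extremes, picked for stable predicted folding, and are not typical of these exons. Each is the 200-base window of the large exon with the lowest predicted folding energy, 5′ to 3′, with the bases that pair in the predicted fold in capitals. They come from the GENCODE transcripts (GRCh38, plus strand), chr15:43528624-43528823 for MAP1A and chr5:72195666-72195865 for MAP1B. Where they lie relative to the clusters was not determined.
MAP1A: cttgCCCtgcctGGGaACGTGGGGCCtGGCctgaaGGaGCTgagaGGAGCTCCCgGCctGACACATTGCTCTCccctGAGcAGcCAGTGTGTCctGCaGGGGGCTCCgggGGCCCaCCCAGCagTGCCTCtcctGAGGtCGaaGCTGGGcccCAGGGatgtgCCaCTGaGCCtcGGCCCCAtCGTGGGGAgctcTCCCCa
MAP1B: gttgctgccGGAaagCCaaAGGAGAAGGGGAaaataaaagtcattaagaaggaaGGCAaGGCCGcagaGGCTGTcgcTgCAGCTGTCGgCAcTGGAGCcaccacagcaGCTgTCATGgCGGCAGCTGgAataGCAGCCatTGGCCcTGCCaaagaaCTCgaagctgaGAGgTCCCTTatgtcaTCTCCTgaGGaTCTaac
The MAP1A window covers bases 7301 to 7500 of its exon, has 136 paired bases, 69% G and C, and a minimum free energy of -105 kcal/mol. The MAP1B window covers bases 1801 to 2000, has 106 paired bases, 55% G and C, and a minimum free energy of -68.4 kcal/mol. The longest unbroken helix in either fold was 9 base pairs. Over all windows of the exon the median energy was -61.5 kcal/mol in MAP1A and -45.95 kcal/mol in MAP1B.

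MAP1A carried a chain of separate non-Alu clusters. All 12 clusters in its interval carried the authors' non-Alu class, 0 were Alu, and 0 lay on the minus strand. In the whole list 15.1% of clusters are non-Alu. Because the interval was chosen with this pattern known, the class and the crowding of these clusters are given as a description, with no test.

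The MAP1A clusters began in the middle of the interval and reached almost to its end. The first started at 43813583, 10583 bases past the lower bound, and the last ended at 43823843, 157 bases before the upper bound. The 10583 bases before the first cluster held none. The stretch from the first to the last cluster measured 10261 bases, or 48.9% of the interval, and the clusters covered 3028 of these bases, 29.5%.

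Set beside the gene model, these lengths are alike. In GENCODE the MAP1A gene is 20663 bases long, against 21001 for the interval, and its large exon begins 10366 bases after the gene's start. From the start of that exon to the end of the gene is 10297 bases, against the 10261 bases spanned by the clusters. The large exon is followed by 2112 further bases of the gene, including a last exon of 1552 bases. The 10261 bases of the chain exceed the 8185 bases of the large exon. The chain therefore cannot lie wholly within that exon if the exon is as long in hg19. The bounds of the interval are rounded, so these distances can differ from those to the gene's own ends. For MAP1A they differ by up to 338 bases if the gene is as long in hg19 and lies inside its interval. Clusters 2 to 10 ran from 11688 bases past the lower bound to 2626 bases before the upper bound. Both distances exceed those of the large exon from the gene's ends, 10366 and 2112 bases, by more than 338 bases. Under these conditions and with the same exons in hg19, clusters 2 to 10 would lie inside the large exon. Clusters 11 and 12 would lie past it, by the distances given below. Cluster 1, at 10583 bases, may start before it.

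**Figure D1:**
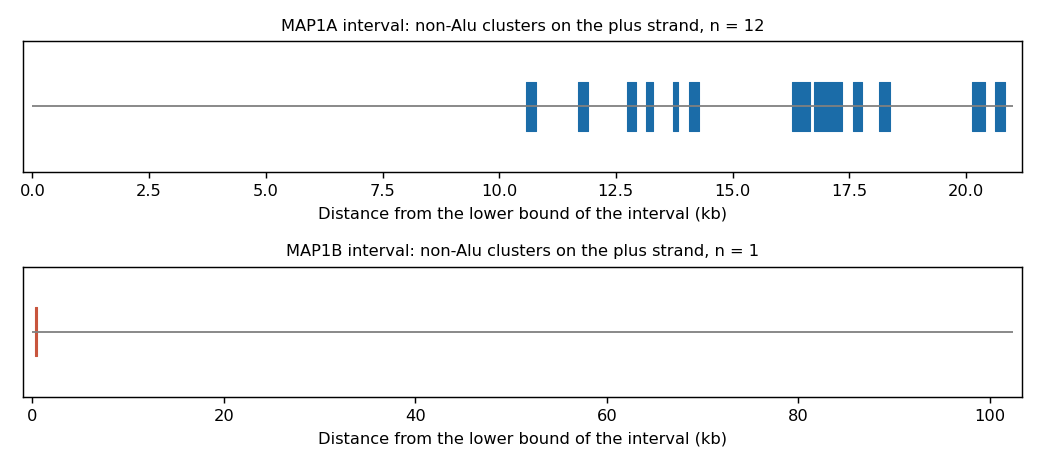
Clusters in the MAP1A interval (top) and the MAP1B interval (bottom), drawn to scale by distance in kb from the lower bound of each interval; each bar is 1 cluster on the plus strand, and the panels have different scales. The 12 MAP1A clusters are spread, with gaps between them, over the second part of their interval. The single MAP1B cluster lies at the start of its own.

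Within MAP1A the clusters fell into 3 blocks. The first block held 6 clusters in 3689 bases, from 43813583 to 43817271, of which the clusters covered 29.7%. After a gap of exactly 2000 bases, the next block held 4 clusters in 2103 bases, from 43819272 to 43821374, and 68.1% of it was covered. A gap of 1762 bases separated it from the last block, 2 clusters in 707 bases from 43823137 to 43823843, with 71.0% covered. Between the blocks no cluster was listed, and without tag counts weaker binding there cannot be judged.

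The 6 clusters of the first MAP1A block measured 211, 215, 196, 164, 97 and 211 bases in order along the strand. Cluster 5, of 97 bases, was the shortest in the gene, with 3273 of the 3582 non-Alu clusters in the list longer, and the other 5 lay within the middle 50% of that class (141 to 222 bases). The 6 clusters started at 43813583, 43814688, 43815731, 43816138, 43816724 and 43817061. The gaps between them were 894, 828, 211, 422 and 240 bases, so the clusters lay closer together in the later part of this block.

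The middle MAP1A block held the longest clusters of the gene. Cluster 7, from 43819272 to 43819665, measured 394 bases, and cluster 8, from 43819742 to 43820343, measured 602 bases. Of 3582 non-Alu clusters in the list, 55 were longer than cluster 7 and 13 were longer than cluster 8. Only 76 bases separated them, the smallest gap in the gene, and together they covered 92.9% of 1072 bases and made up 32.9% of all covered bases in MAP1A. Cluster 9 (43820577 to 43820768, 192 bases) followed after 233 bases, and cluster 10 (43821131 to 43821374, 244 bases) after a further 362 bases.

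The last MAP1A block was a close pair at the end of the interval. Cluster 11, from 43823137 to 43823408, measured 272 bases, and cluster 12, from 43823614 to 43823843, measured 230 bases, with 205 bases between them. In GENCODE the last exon of MAP1A begins 19111 bases after the gene's start. The distances of clusters 11 and 12 from the lower bound were 20137 and 20614 bases.

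Over all 12 clusters the MAP1A lengths ranged from 97 to 602 bases with a median of 213, against a median of 191 for all non-Alu clusters, whose middle 50% ran from 141 to 222 bases. In MAP1A, 10 clusters were longer and 2 were shorter than that median. The 3 lengths of 272, 394 and 602 bases exceeded 250 bases, the value that 90% of non-Alu clusters do not exceed. Clusters of 1 transcript share their source and are not replicates, so this difference in length was not tested.

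**Figure D2:**
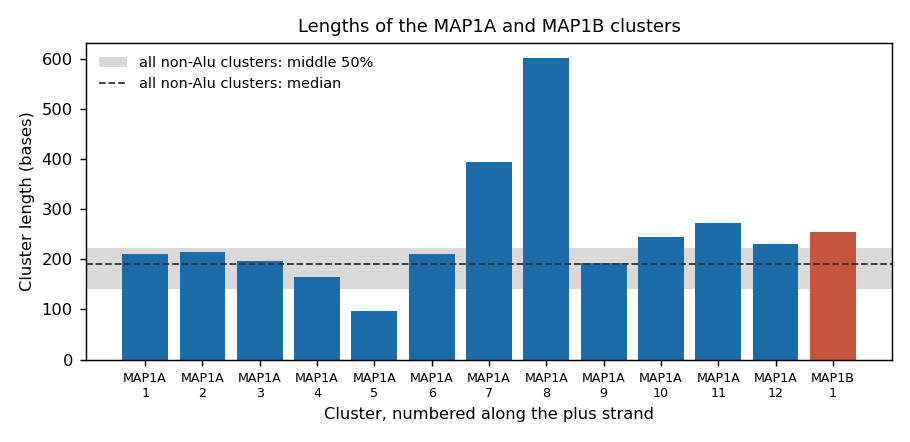
Length in bases of each MAP1A cluster, numbered along the plus strand, and of the MAP1B cluster; the dashed line is the median (191) and the grey band the middle 50% (141 to 222) of all 3582 non-Alu clusters. Clusters 7 and 8 of MAP1A, 394 and 602 bases, stand above the rest, which lie between 97 and 272 bases.

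MAP1B, in contrast to its paralogue, was represented by 1 cluster. It was non-Alu, lay on the plus strand from 71403268 to 71403521 and measured 254 bases, and 323 non-Alu clusters in the list were longer. It started 268 bases past the lower bound of the interval and covered 0.248% of it. The 101879 bases that followed, up to the upper bound, held 0 clusters of either class on the plus strand, and the whole interval held 0 on the minus strand.

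The 268 bases from the lower bound to the MAP1B cluster can be set beside distances in the gene model, as values only. In GENCODE the gene is 102337 bases long, against 102401 for the interval, and the large exon begins 86632 bases after the gene's start. The first exon is 482 bases long and the second begins 8464 bases after the gene's start. The cluster's 254 bases follow the 268-base offset. The bounds are rounded, by up to 64 bases under the conditions given for MAP1A. Whether the cluster ends inside the first exon was not determined. With 1 cluster in the interval, crowding in the large exon of MAP1B cannot be described from this list. A gene with no listed cluster in an exon is not shown to be unbound there, since the depth of the list and the level of the MAP1B transcript are unknown.

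Each MAP1A cluster had a neighbour within 1000 bases and the MAP1B cluster had none. A neighbour is here another same-strand cluster at most 1000 bases away, edge to edge. There was 1 or more for 12 of 12 MAP1A clusters and for 0 of 1 MAP1B clusters. With a distance of 200 bases the MAP1A count was 2 of 12, and the share over the whole list at that distance was not computed. At 1000 bases, of all clusters in the list 6.7% have such a neighbour, and of non-Alu clusters 17.1%. The rule chose a crowded gene, so nothing is read from the MAP1A count. The 11 gaps in MAP1A had a median of 362 bases, with 7 of at most 500 bases, 2 between 501 and 1000 bases and 2 above 1000 bases.

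Outside the intervals the nearest same-strand clusters lay 45986 bases or more from the bounds. For MAP1A these distances were not ranked against the list. Upstream of MAP1A the nearest plus-strand cluster was an Alu cluster ending at 43757014, 45986 bases before the lower bound. Downstream it was a non-Alu cluster starting at 44038605, 214605 bases past the upper bound. For MAP1B the nearest were Alu clusters on both sides, 1 ending at 70950819, 452181 bases before the lower bound, and 1 starting at 71631050, 125650 bases past the upper bound.

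The MAP1B cluster was among the more isolated of its class. The nearest same-strand cluster lay 227528 bases away, against a median of 10962.5 bases for non-Alu clusters. In the list 200 non-Alu clusters, 5.58%, were farther from their nearest neighbour than this. Like MAP1B, 12.3% of non-Alu clusters had no same-strand cluster within 100000 bases.

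Among chains of clusters anywhere in the genome, the place of the MAP1A chain by number varied with the gap allowed. When consecutive same-strand clusters with gaps of at most 2000 bases were joined into runs, the list gave 22302 runs, of which 21061 were single clusters, 136 had 3 or more clusters and 15 had 5 or more. MAP1A formed 1 run of 12 clusters, the second by number at that limit. The only larger run lay on chromosome 11 between 62285661 and 62301366 (minus strand) and had 29 clusters, all non-Alu. The MAP1A run rests on the gap of 2000 bases that equals the limit. With a limit of 1500 or 1000 bases the largest MAP1A run held 6 clusters. At 1000 bases 3 runs elsewhere were larger, and 4 runs, MAP1A included, had 6 clusters. With a limit of 5000 bases the MAP1A run kept its 12 clusters, while 2 runs elsewhere were larger and 2 runs, MAP1A included, had that number.

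The MAP1A run was long rather than dense. Of the 15 runs with 5 or more clusters, 13 were entirely non-Alu. MAP1A had 1.17 clusters per kb of span, while 10 of the other runs had more and 4 had fewer (median of the 15 runs 1.41, range 0.887 to 2.48). Its covered share of 29.5% was the middle value of the 15, which ranged from 17.2 to 53.8%. The next runs by number, 3 of 8 clusters each and all non-Alu, were chosen after their values were seen. They spanned 8122 bases on chromosome 14, 6607 bases on chromosome 8 and 4263 bases on chromosome 4, with 0.985, 1.21 and 1.88 clusters per kb. No test was made of these differences.

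**Figure D3:**
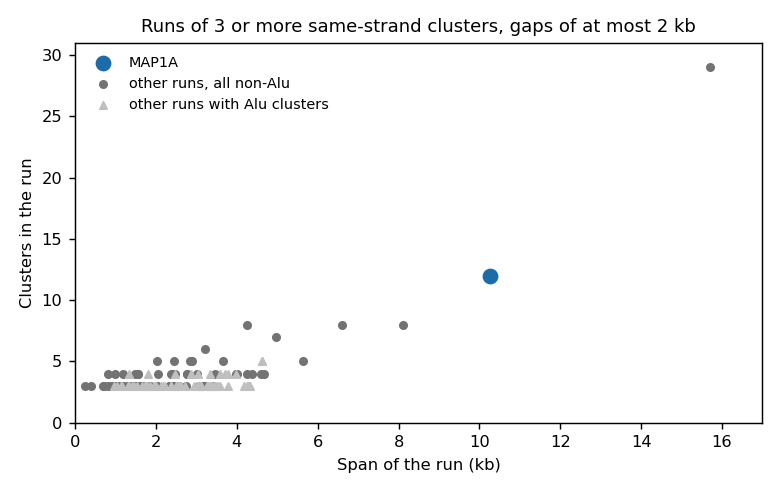
Number of clusters against span in kb for each of the 136 runs of 3 or more same-strand clusters with gaps of at most 2000 bases; the large point is MAP1A, grey circles are other runs with only non-Alu clusters and triangles are runs with Alu clusters. MAP1A (12 clusters, 10261 bases) lies between the run of 29 clusters on chromosome 11 and the runs of 8 or fewer.

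The large exons of MAP1A and MAP1B also differed in sequence. The rule did not use sequence, but this comparison of 2 chosen genes was added after their clusters were seen. The MAP1A exon had 55.8% G and C and 27.3% A, and the MAP1B exon 47.8% G and C and 31.9% A. Predicted folds of 200-base windows, taken every 100 bases, had a median minimum free energy of -61.5 kcal/mol over 80 windows in MAP1A and -45.95 kcal/mol over 64 windows in MAP1B, where a lower value means a more stable fold. Of the MAP1A windows, 66 (82.5%) were more stable than the MAP1B median and 18 (22.5%) were more stable than the most stable MAP1B window. The windows of an exon overlap and the exons number 2, so this is a description with no test. Energies were not set against sequences of equal composition. How far the folding difference restates the difference in G and C content was not tested.

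Set among all 85 genes with at least 5000 coding bases in 1 exon, MAP1A had a fold more stable than most, with 15 genes below its median energy and 21 genes above its G and C content. MAP1B was at the middle of the 85 by folding energy, with 42 genes more stable. By coding length of the exon, 22 genes exceeded MAP1A and 39 exceeded MAP1B. How many of these genes hold clusters was not analysed here, so the relation of folding to binding was not tested.

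**Figure D4:**
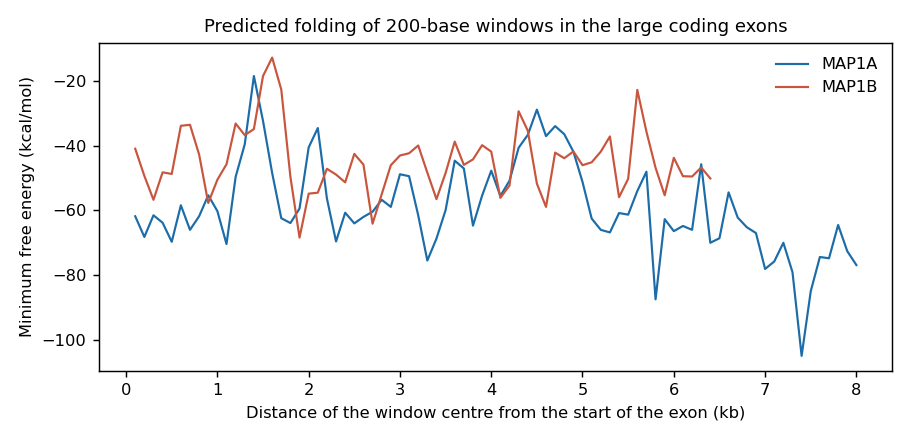
Minimum free energy in kcal/mol of the predicted fold of each 200-base window, against the distance of the window's centre from the start of the large coding exon in kb, for MAP1A and MAP1B. Most MAP1A windows lie below the MAP1B median of -45.95 kcal/mol, with the lowest value, -105 kcal/mol, between bases 7301 and 7500.

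The MAP1A and MAP1B exons, though of related genes, shared no word of 30 bases. Of 8156 words of 30 bases in the MAP1A exon and 6473 in the MAP1B exon, 0 occurred in the other exon and 0 occurred on either strand in a GENCODE transcript of another gene. Within the MAP1A exon 6 words were repeats, and within the MAP1B exon 0 were. The reverse complement of a word was found in 0 cases in either exon, so neither exon holds a perfect inverted repeat of 30 bases. Genomic sequence outside annotated transcripts was not searched.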

How the data were processed

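Clusters of ADAR1 CLIP-seq in U87MG cells were read from the deposited list, whose start and end positions and class are other values than counts and carry no normalization. Per the submitters' processing notes, reads were handled with cutadapt 1.1 and Novoalign 2.08.22 and the build was hg19. The clustering program and its limits, the joining of AB1 and AB2, the treatment of reads with several matches and the Alu rule are not given in the sources used; they set cluster lengths and gaps. Per the labels' protocols, libraries had 23 PCR cycles and products of 75 to 250 bases. Starts were taken as counted from 0 and are printed counting from 1, an assumption that could shift each start by 1 base.

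Lengths, gaps, neighbours (within 1000 bases) and runs (gaps of at most 2000 bases) were computed with Python 3.11.15, numpy 2.4.6 and pandas 2.3.3, after the code was tested on simulated data. Exon lengths and sequence came from GENCODE release 29 (GRCh38), and folds from ViennaRNA 2.7.2 at 37 °C. The folding and the word search were chosen after the clusters were seen. The genes and measures were chosen with earlier results of these data known, and every cluster of both genes is named. Without replicates or control samples no test was made. Cluster sequences and 32 other microtubule genes were not analysed here, for want of a genome on that build. Alternatives were a wider membership, both strands, merging within 50 bases, a length filter, and other neighbour and run distances.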

Additional observations from a re-analysis of the deposited data

How the results depend on the processing

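Of 26 alternative values for MAP1A and MAP1B, 23 stayed within 1.5 times the reported count or within the spread of the reported value. Several could not move. No MAP1A gap is below 76 bases, so merging within 50 bases joined none there. MAP1B has 1 cluster, 227528 bases from the nearest on its strand. The covered share at 1000 and 1500 bases (29.7%) is that of the first block alone, a different stretch from the whole run (29.5%). The spread of this share was a 95% binomial interval that treats neighbouring bases as independent, which they are not. The number of MAP1A clusters with a neighbour was 2 of 12 with a neighbour distance of 200 bases, against 12 at 1000 bases. The largest MAP1A run held 6 clusters with a run gap of at most 1000 or 1500 bases, against 12 at 2000 bases, because 1 gap is 2000 bases long; this count and the 1500-base limit were chosen after seeing the data. Keeping clusters at or above the median length of 192 bases left 10 of 12 in MAP1A, 9 of them with a neighbour, and the 1 in MAP1B. Shares of clusters with a neighbour over the whole list were computed only at 1000 bases and without the length filter. The covered share of a run has no meaning for the single MAP1B cluster, which covers all of its own span. No paired analysis was possible because AB1 and AB2 have 1 library each and are not told apart in the list; neither could be left out in turn.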
